A study of Mus musculus with 6 samples.

Results

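The genes described here carry the names of families that make, break down and respond to cyclic AMP, and were measured in the mouse testis. They are the adenylyl cyclases (Adcy), the genes named Pde, the catalytic and regulatory subunits of protein kinase A (Prkaca, Prkacb and the 4 Prkar genes) and the A-kinase anchoring proteins (Akap). Some of the Pde genes act on cyclic GMP or split no cyclic nucleotide. They were taken by symbol from the protein-coding rows of the count table, which gave 57 of its 54100 genes: 10 cyclases, 26 Pde genes, 2 catalytic subunits, 4 regulatory subunits and 15 anchors. Of these, 53 had at least 30 counts over the 6 libraries and were tested. The others were Pde6g, Pde2a, Adcy8 and Pde6b, with 15, 11, 8 and 3 counts, and the members nearest above the limit were Adcy4, Pde4c and Pde6h, with 38, 46 and 53. Adcy4 passed through its deletion counts alone, and Pde6h almost through its WT counts alone.

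RNA came from cryosections of whole testis in 2 groups of 3 libraries, wild type (WT) and H3t deletion, the latter made to lack H3t, which encodes a testis form of histone H3. The labels used here give no age, strain or deletion design. Library totals ran from 8037826 to 10702930 counts. H3f4, the current symbol of H3t, had 356 to 571 counts in the WT libraries and 0 in each deletion library. Whole sections mix germ cells, Sertoli cells, Leydig cells, vessels and macrophages, and fewer cells of a type cannot be told apart from less RNA per cell. Mitochondrial genes took 5.59% to 6.44% of counts in WT and 21.6% to 22.7% in the deletion, and the part of this shift in the results was not tested.

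Cyclic AMP is an intracellular messenger made from ATP by adenylyl cyclases and destroyed by phosphodiesterases. It frees the catalytic subunits of protein kinase A (PKA) from a dimer of regulatory subunits, and anchoring proteins hold that dimer at chosen places in the cell. In the testis the messenger carries the luteinizing hormone signal in Leydig cells and the follicle-stimulating hormone signal in Sertoli cells. Sperm use a separate set for motility and capacitation: Adcy10, the soluble cyclase driven by bicarbonate and calcium, and Akap3 and Akap4, anchors of the fibrous sheath around the sperm tail. These, with Akap14, an anchor of axonemes, are called the sperm forms below, and every other gene of the set is called a general form even where it also has a sperm transcript.

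The promoters of the sperm forms are shown because these genes fell together and because those of Akap3 and Akap4 hold 1 stretch in common. The lines give the 250 bases before the RefSeq start (GRCm38.p6), 5′ to 3′ on the gene's strand, with the longest run shared by Akap3 and Akap4 in capitals. Akap3 is at chr6:126852848-126853097 (plus strand), Akap4 at chrX:7067265-7067514 (plus), Adcy10 at chr1:165484933-165485182 (plus) and Akap14 at chrX:37168843-37169092 (minus). Akap4 has a second start, whose 250 bases (chrX:7067960-7068209, plus) do not hold the run and are not printed.
Akap3: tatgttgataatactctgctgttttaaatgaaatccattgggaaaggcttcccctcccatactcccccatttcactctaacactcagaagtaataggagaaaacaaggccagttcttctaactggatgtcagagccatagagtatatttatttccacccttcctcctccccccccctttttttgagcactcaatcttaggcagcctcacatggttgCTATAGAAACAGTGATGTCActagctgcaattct
Akap4: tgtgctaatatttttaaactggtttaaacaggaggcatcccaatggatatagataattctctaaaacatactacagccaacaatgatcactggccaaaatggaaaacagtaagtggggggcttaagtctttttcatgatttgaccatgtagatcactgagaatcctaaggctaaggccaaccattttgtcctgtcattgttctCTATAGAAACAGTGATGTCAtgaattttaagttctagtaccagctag
Adcy10: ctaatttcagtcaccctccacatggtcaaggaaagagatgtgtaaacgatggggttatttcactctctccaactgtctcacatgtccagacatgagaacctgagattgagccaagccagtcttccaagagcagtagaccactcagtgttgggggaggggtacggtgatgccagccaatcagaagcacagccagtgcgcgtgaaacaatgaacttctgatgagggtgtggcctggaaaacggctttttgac
Akap14: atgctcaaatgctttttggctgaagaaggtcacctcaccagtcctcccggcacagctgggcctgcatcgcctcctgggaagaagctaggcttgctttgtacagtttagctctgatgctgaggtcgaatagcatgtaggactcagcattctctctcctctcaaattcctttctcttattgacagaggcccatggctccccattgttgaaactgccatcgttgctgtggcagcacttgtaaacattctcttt
The run of 20 bases begins 34 bases before the start of Akap3 and 47 before the printed start of Akap4. Among the 32851 promoter windows of 300 bases in the table it occurs in these 2 genes and in no other. Between any other 2 sperm forms the longest shared run, on either strand, was 10 bases. The run, found when the sequences were compared after the counts were known, ends in TGATGTCA. This motif is on either strand in 3.62% of all windows, in 2 of the 5 windows of sperm forms, in 3 of 33 windows of general forms that fell (Akap6, Pde10a and Pde1a) and in 0 of 38 of those that rose. The 2 windows of sperm forms are those of Akap3 and Akap4 from which the motif was taken, so that count was fixed in advance and shows no enrichment. The cyclic AMP response element TGACGTCA is in 1.79% of all windows and in none of the 5 sperm form windows, and its core TGACG (both strands, the full element included) is in 20.8% of all windows, in none of the 5 sperm form windows and in 18 of 90 windows of the 47 members with an entry. Of the members only Prkar1a had the full element. These matches describe letters in a window and show no binding.

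Levels are given in CPM, a gene's counts relative to the library total, after TMM scaling (trimmed mean of M values), and a gene is called where edgeR's quasi-likelihood test passes at a false discovery rate of 0.05. Of the 53 tested members, 23 rose and 23 fell in the deletion, so 86.8% were called. Over all 19146 genes tested the share called was 80.9%, with 36.7% higher and 44.2% lower. The members' median log2 change was 0.31, beside -0.13 over all genes. All 4 sperm forms fell, with a median of -8.51, and of the 49 general forms tested 23 rose, 19 fell and 7 were not called, with a median of 0.35. WT and deletion libraries stood apart for 45 of the 53, where the share over all genes was 82.6%. Falls of at least 8-fold numbered 11 of 53 and of at least 4-fold 16 of 53, beside 23.9% and 29.6% over all genes. Rises of at least 8-fold and 4-fold numbered 1 (Adcy4) and 10, beside 4.29% and 16.3%. The call rates of the whole set thus lay near those of the table, and what follows concerns which members went which way.

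**Figure D1:**
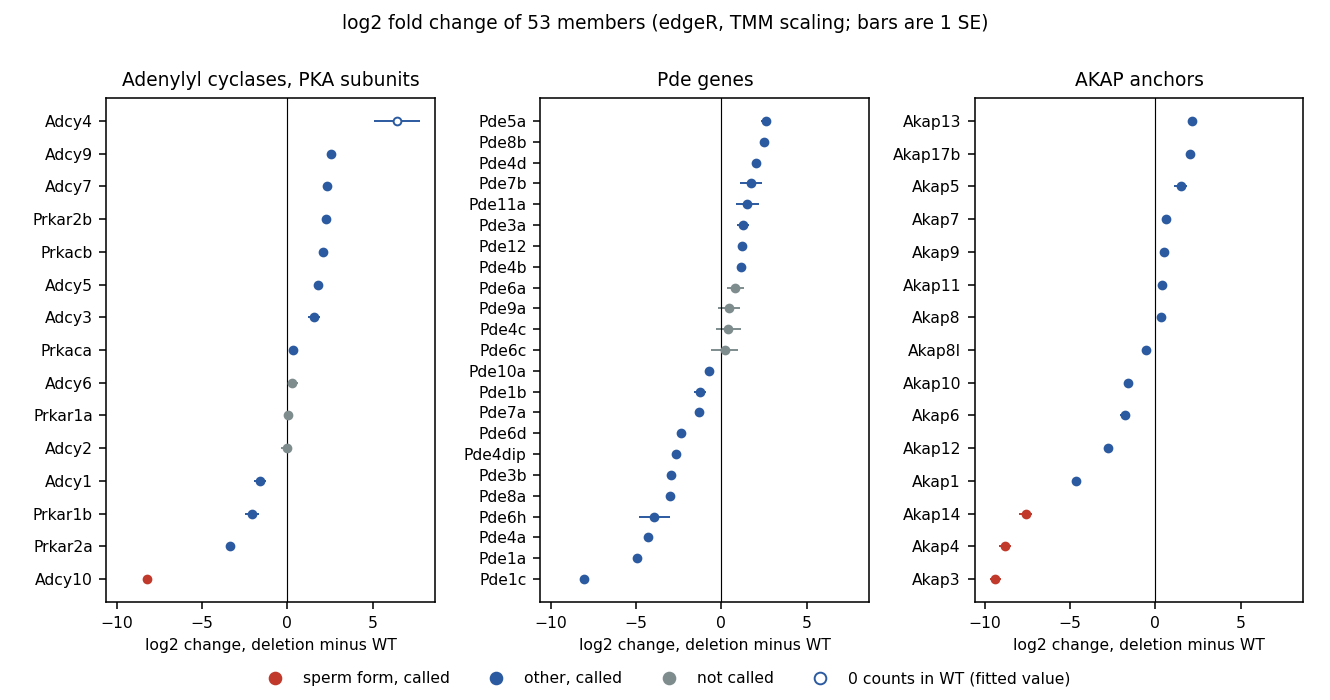
log2 fold changes (deletion minus WT, edgeR with TMM scaling) of the 53 tested members by family, with bars of 1 standard error; red marks the sperm forms, grey the members that were not called and the open point Adcy4, which had 0 counts in WT and whose fitted value is no bound. The 4 sperm forms lie between -9.39 and -7.60, and of the general forms Pde1c at -8.06 lies among them.

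The 4 sperm forms were nearly gone from the deletion libraries. Adcy10 (chromosome 1, 165485183 to 165576774) was at 451, 465 and 431 CPM in WT replicates 1, 2 and 3 and at 1.63, 1.96 and 0.893 CPM in deletion replicates 1, 2 and 3, a log2 change of -8.21 (standard error 0.16, edgeR adjusted p = 1.01e-17). Akap4 (chromosome X, 7067519 to 7078609) was at 2203, 2339 and 2269 CPM in WT and 10.8, 2.80 and 1.19 CPM in the deletion, a change of -8.82 (0.33, adjusted p = 3.30e-14). Akap3 (chromosome 6, 126853098 to 126874308) went from 1779, 1558 and 1790 CPM to 5.79, 1.49 and 0.0992 CPM, a change of -9.39 (0.33, adjusted p = 1.57e-14). Each of the 3 WT libraries lay far above each deletion library for every sperm form, and WT libraries agreed closely while deletion libraries did not.

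The remnants in the deletion were uneven for the anchors. Deletion replicate 1 held 64 of the 81 deletion counts of Akap3 and 119 of the 161 of Akap4, and replicate 3 held 1 and 12. Akap14 (chromosome X, 37150698 to 37168842) fell from 25.59, 29.16 and 26.02 CPM to 0.271, 0.0933 and 0 CPM, a log2 change of -7.60 that rests on 4 deletion counts. Without deletion replicate 1 the changes of Akap3, Akap4 and Akap14 were -11.10, -10.21 and -8.83. Adcy10 was not highest there: its 18, 21 and 9 deletion counts stood closer together. All 12 spermatid markers fell, with a summed level of 29130 to 31550 CPM in WT and of 182, 153 and 98.2 CPM in deletion replicates 1, 2 and 3, and none was at 0 over the deletion group. Most of the deletion sum was Odf2, at 119.5, 122.8 and 87.4 CPM, which varied much less than Akap3 and Akap4. Of the 12 markers 9 were highest in deletion replicate 1, such as Prm2 at 24.2, 7.66 and 2.38 CPM, and Odf1, Odf2 and Spaca1 in replicate 2. All 12 meiotic markers fell as well, with a summed level of 7771 to 8044 CPM in WT and 453 to 505 CPM in the deletion. The part of these cells in the results was not tested.

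**Figure D2:**
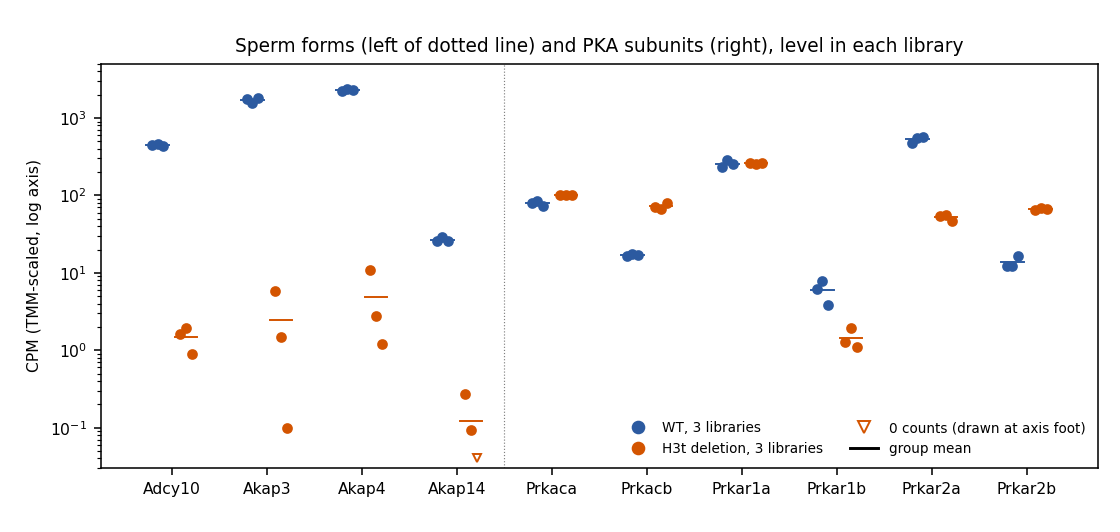
TMM-scaled CPM on a log axis in each of the 6 libraries for the 4 sperm forms and the 6 PKA subunits; bars mark group means and the open triangle a library with 0 counts. WT and deletion points are far apart for the sperm forms, cross over between Prkar2a and Prkar2b, and overlap for Prkar1a.

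The subunits of the PKA holoenzyme went different ways: Prkar2a and Prkar1b fell, Prkar2b and Prkacb rose, and Prkar1a and Prkaca had small changes that depended on the scaling. Prkar1a (chromosome 11, 109649405 to 109669656), the RI-alpha subunit of most body cells, was at 234, 284 and 251 CPM in WT and 260, 256 and 266 CPM in the deletion, overlapping, with a log2 change of 0.02 (standard error 0.09) that was not called with TMM. It was called lower by DESeq2, at -0.20 (adjusted p = 0.0401), and higher by edgeR with upper-quartile scaling, at 0.48, and with no factor, at 0.61 (adjusted p = 4.35e-06). Prkar2a (chromosome 9, 108689314 to 108750436), the RII-alpha subunit, which is abundant in sperm, fell from 478, 550 and 564 CPM to 54.6, 56.6 and 46.0 CPM, a log2 change of -3.34 (0.11, adjusted p = 3.62e-15). Prkar2b (chromosome 12, 31958476 to 32061296), the RII-beta subunit known from fat, brain and gonadal somatic cells, rose from 12.3, 12.3 and 16.7 CPM to 63.9, 67.8 and 67.5 CPM, a change of 2.27 (0.15, adjusted p = 8.57e-11). The groups stood apart for both RII genes, in opposite directions.

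The scarce RI-beta gene Prkar1b, which overlaps the exons of Gm15672 on its strand by 341 bases and is uncertain for that reason, fell from 6.17, 7.90 and 3.83 CPM to 1.27, 1.96 and 1.09 CPM, a change of -2.04. Of the catalytic subunits, Prkacb (chromosome 3, 146729574 to 146812990) rose from 16.3, 17.3 and 16.8 CPM to 71.8, 66.7 and 80.0 CPM, a log2 change of 2.11 (standard error 0.13, adjusted p = 4.85e-11). Prkaca (chromosome 8, 83972993 to 83996443), whose locus also gives the sperm form of the enzyme, was at 79.6, 84.4 and 72.9 CPM in WT and 100.4, 100.8 and 101 CPM in the deletion, a change of 0.35 that passed with TMM (adjusted p = 0.0030). With median-of-ratios it was 0.13 and did not pass. The deposited counts are per gene, so the sperm transcript of Prkaca cannot be separated from the general one.

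Shares within a library need no scaling factor, but the share of a gene also moves when its relatives do. Of the counts per kb of exon of the 4 regulatory genes, Prkar2a held 56.3% ± 1.71 in WT and 9.44% ± 1.04 in the deletion, Prkar2b 2.56% ± 0.434 and 20.9% ± 0.589, and Prkar1a 40.1% ± 1.8 and 69.3% ± 1.22 (n = 3 per group, SD). Within the RII pair, chosen after values were seen, Prkar2b held 4.31%, 3.76% and 4.92% in the WT libraries and 67.2%, 67.7% and 71.9% in the deletion libraries, so the more abundant RII gene changed. Prkaca held 94.3% ± 0.385 of the catalytic pair in WT and 83.0% ± 1.27 in the deletion, and stayed the larger member in all 6 libraries. The 2 catalytic genes together made up 18.6% ± 1.57 of the counts per kb of all 6 subunits in WT and 35.9% ± 0.334 in the deletion. In each of 8 such shares listed for PKA, cyclase and anchor genes, the 3 WT libraries lay apart from the 3 deletion libraries. The exact permutation test (two-sided) then gave p = 0.1, the smallest possible with 3 against 3, and 0.1 after Benjamini-Hochberg adjustment over the 8. Lengths are those of all annotated exons, so a share also depends on which transcripts a cell uses.

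The soluble cyclase lost nearly all of its share of the cyclase counts per kb, and this loss by itself raises the share of every other cyclase. Adcy10 made up 87.5% ± 0.817 of the cyclase counts per kb in WT and 0.607% ± 0.213 in the deletion (n = 3, SD). Adcy9, a widely expressed membrane cyclase, took 4.91% ± 0.622 and 59.98% ± 3.2, and Adcy7 1.61% ± 0.267 and 17.3% ± 2.72. Of the 8 membrane cyclases tested 5 rose with TMM scaling, 1 fell and 2 were not called. That is 62.5% higher and 12.5% lower, beside 36.7% and 44.2% of all genes tested. Adcy9 rose from 12.8, 17.2 and 15.1 CPM to 78.5, 95.3 and 89.6 CPM, a log2 change of 2.54 (standard error 0.14, adjusted p = 8.06e-12). Adcy7 rose from 6.92, 7.32 and 4.93 CPM to 36.7, 29.9 and 31.3 CPM, a change of 2.35, and Adcy5, a cyclase that calcium inhibits, from 5.72, 3.72 and 5.20 CPM to 15.6, 18.0 and 17.4 CPM, a change of 1.81. For these 3 genes no deletion library came near a WT library.

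Adcy3, best known from olfactory cilia, rose by 1.55 on the log2 scale, with 1380 bases of its exons facing those of Cenpo on the other strand. Adcy4 had 0 counts in each WT library and 12, 16 and 10 in the deletion, at least 8.95-fold higher when 3 counts over the WT libraries (0.133 CPM) are taken as the floor. Adcy1, the neuronal calmodulin-stimulated cyclase, fell from 4.82, 4.76 and 6.30 CPM to 1.63, 1.59 and 1.98 CPM, a change of -1.60 (adjusted p = 7.02e-04). Adcy2 was at 4.52, 5.81 and 4.93 CPM in WT and 6.60, 5.04 and 3.37 CPM in the deletion, which overlap, and Adcy6 had a change of 0.31. Neither of these 2 was called with TMM, while Adcy6 passed at 0.77 and 0.89 with upper-quartile scaling and with no factor. Of the exons of Adcy6, 605 bases face those of Gm29331 on the other strand.

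**Figure D3:**
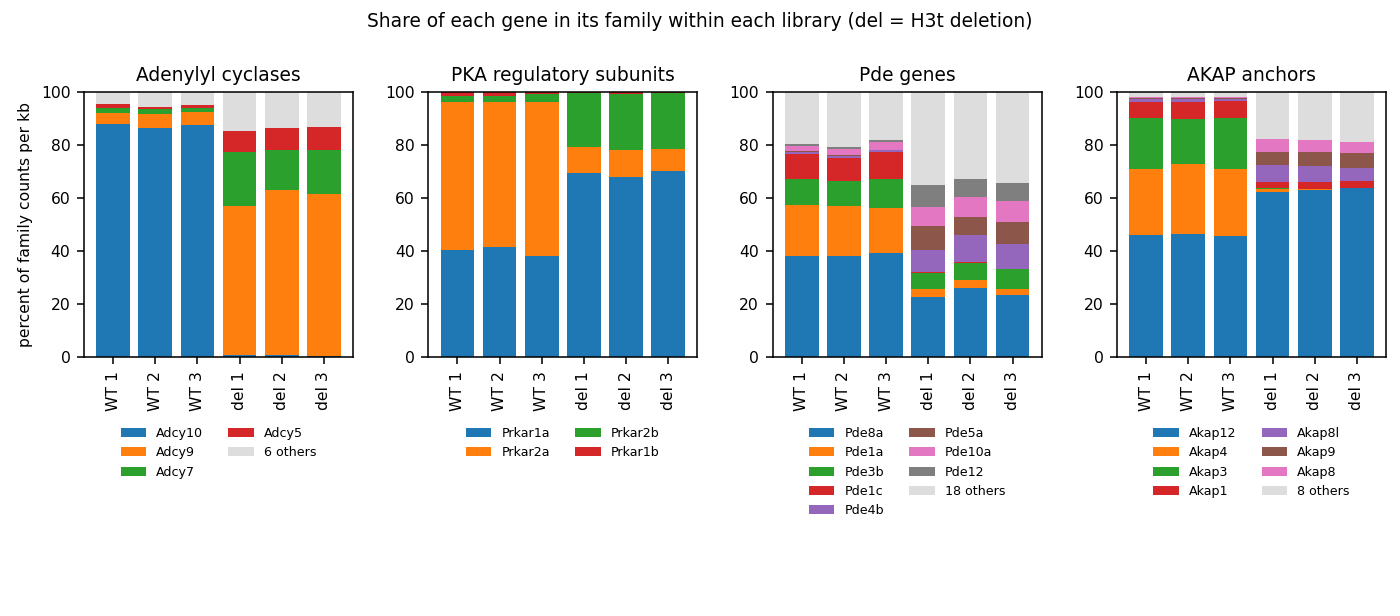
Share of each gene in the counts per kb of its family, stacked to 100% in each WT and H3t deletion library (del), for cyclases, PKA regulatory subunits, Pde genes and anchors; small members are pooled in grey. Adcy10 fills 87.5% of the cyclase bar in WT on average and 0.607% in the deletion. The share of Prkar2a is smaller in the deletion and those of Prkar1a and Prkar2b are larger, although the level of Prkar1a was not called as changed with TMM (log2 change 0.02).

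Among the Pde genes the WT-abundant ones fell and several scarce relatives rose. Of 23 tested, 8 rose with TMM scaling, 11 fell and 4 were not called, with a median log2 change of 0.20. That is 34.8% higher and 47.8% lower, near the 36.7% and 44.2% of all genes tested. Pde1c, a calmodulin-stimulated enzyme that splits cyclic AMP and cyclic GMP, fell from 420, 416 and 458 CPM to 0.904, 2.71 and 1.19 CPM, a change of -8.06 (standard error 0.19, adjusted p = 5.07e-17), a loss within the range of the sperm forms (-8.73 without deletion replicate 2) although it was placed among the general forms. Pde1a, of the same subfamily, fell from 262, 269 and 231 CPM to 9.04, 8.78 and 6.85 CPM (-4.94), and the low Pde1b by 1.24, with Pde1b not called at -0.78 with upper-quartile scaling and -0.66 with no factor. Pde4a, of the cyclic AMP-specific enzymes that rolipram inhibits, fell from 95.4, 86.7 and 69.0 CPM to 4.25, 4.39 and 3.97 CPM (-4.31). In all of these the 3 WT libraries stood above the 3 deletion libraries.

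Pde8a and Pde8b, high-affinity cyclic AMP-specific enzymes known from Leydig cells, went apart. Pde8a fell from 345, 367 and 357 CPM to 41.5, 47.2 and 43.4 CPM, a log2 change of -3.02 (standard error 0.10, adjusted p = 2.76e-15). Pde8b rose from 3.01, 3.02 and 3.42 CPM to 17.9, 17.2 and 18.0 CPM, a change of 2.48 (0.23, adjusted p = 1.20e-08). Of the exons of Pde8b, 447 bases face those of Gm48420 on the other strand. Within the pair, Pde8b held 0.605% ± 0.0465 of the counts per kb in WT and 21.7% ± 1.5 in the deletion (n = 3, SD). The same turn was seen in the Pde3 pair, enzymes that cyclic GMP inhibits, which were picked after their values were seen: Pde3b fell from 199, 204 and 223 CPM to 25.0, 25.8 and 31.2 CPM (a log2 change of -2.94), and Pde3a rose from 3.16, 5.58 and 1.23 CPM to 9.40, 7.28 and 7.84 CPM (1.27, or 1.91 without WT replicate 2). Pde3a shares 741 exon bases with a gene on the other strand.

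Within the 4 Pde4 genes, Pde4a held 81.0% ± 3.28 of the counts per kb in WT and 7.80% ± 0.408 in the deletion (n = 3, SD). Pde4b rose from 17.8, 22.9 and 19.6 CPM to 40.4, 48.5 and 45.8 CPM, a log2 change of 1.15, and Pde4d from 4.52, 7.09 and 6.71 CPM to 26.04, 26.98 and 21.83 CPM, a change of 2.02. Pde4c, at 46 counts in all, was not called, at 0.40. The Pde7 pair, also cyclic AMP-specific, had Pde7a lower by -1.30 and the scarce Pde7b higher by 1.73, the latter at 2.56 without WT replicate 2 and not called without WT replicate 1 (1.49), WT replicate 3 (1.45) or deletion replicate 2 (1.56), nor with DESeq2 (1.55). Shares within the Pde8, Pde3, Pde4, Pde1 and Pde7 groups, within the RII pair and of Akap12 were chosen after values were seen, and in each of these 7 WT and deletion libraries were apart (exact permutation test, p = 0.1, adjusted 0.1).

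**Figure D4:**
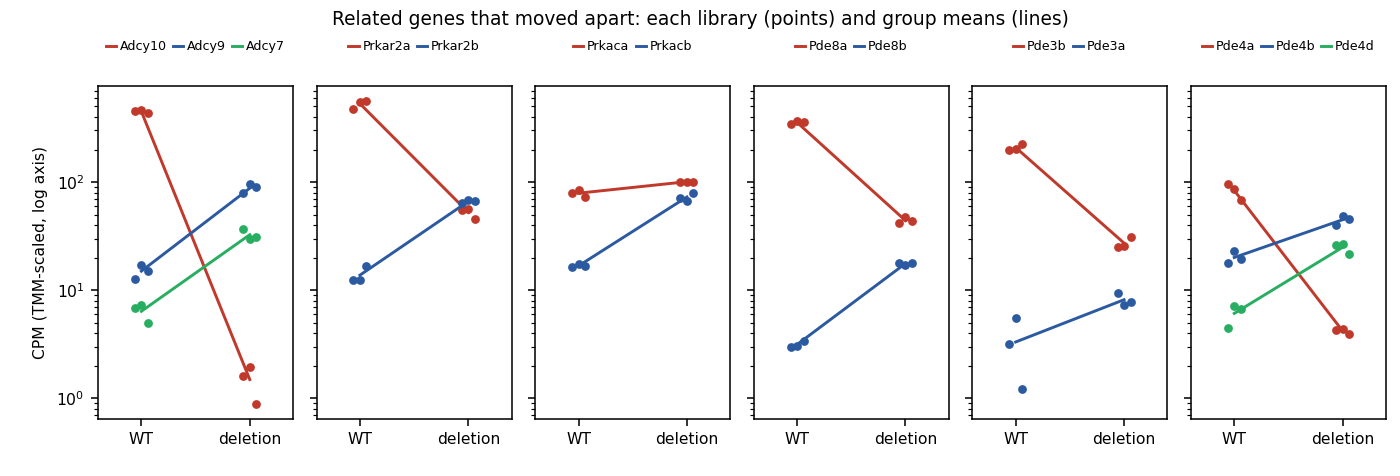
TMM-scaled CPM on a log axis in each library (points) and as group means (lines) for 6 sets of related genes. In 5 of the sets the gene that is most abundant in WT falls while relatives rise, and in the sixth Prkaca and Prkacb both rise, by 0.35 and 2.11 on the log2 scale. The sets were drawn with the values known, so this count was fixed by the choice and is no test. Only some of the cyclases and Pde4 genes are drawn. The Pde1 genes, which all fell (Pde1a -4.94, Pde1b -1.24 and Pde1c -8.06), are not drawn.

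Pde5a, the cyclic GMP-specific enzyme of smooth muscle, rose from 6.32, 8.37 and 2.60 CPM to 40.0, 29.8 and 37.3 CPM, a log2 change of 2.61 (standard error 0.26, adjusted p = 5.02e-08). Pde10a, which splits both messengers, was lower by -0.73 with TMM and not called at -0.27 and -0.15 with upper-quartile scaling and no factor. Pde11a, at 85 counts, was called at 1.54 although the groups overlapped, was at 2.30 without WT replicate 2, and was not called without WT replicate 1 (1.10), WT replicate 3 (1.49), deletion replicate 1 (1.39) or deletion replicate 3 (1.23), nor with median-of-ratios (1.33) or DESeq2 (1.36). Of the members with a Pde name that split no cyclic nucleotide, Pde4dip, a scaffold of centrosome and Golgi, and Pde6d, a carrier of prenylated proteins, fell by 2.63 and 2.35. Pde12, a mitochondrial enzyme that acts on RNA ends, rose from 10.7, 12.3 and 10.7 CPM to 29.5, 23.2 and 24.5 CPM, with 527 exon bases facing Arf4. The photoreceptor genes Pde6a and Pde6c and the cyclic GMP-specific Pde9a were not called with TMM, at 0.83, 0.20 and 0.45, though Pde6a passed with upper-quartile scaling (1.29) and with no factor (1.41). Pde6h, at 53 counts, was at -3.93, or -5.15 without deletion replicate 2, and was called.

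The anchors outside the sperm forms were led by Akap12. Akap12, a membrane scaffold for PKA and protein kinase C, was the most abundant anchor per kb in both groups and fell from 8730, 8736 and 8724 CPM to 1267, 1282 and 1252 CPM, a log2 change of -2.78 (standard error 0.09, adjusted p = 3.30e-15). The WT values had a coefficient of variation of 0.0688%, below the 0.365% to 0.415% that counting alone gives. Their closeness is thus no measure of precision. Despite its fall Akap12 held 46.1% ± 0.354 of anchor counts per kb in WT and 63.1% ± 0.821 in the deletion (n = 3, SD), while Akap3, Akap4 and Akap14 together went from 44.6% ± 0.524 to 0.787% ± 0.856. Against the 12 general anchors alone its share fell from 83.2% ± 0.21 to 63.6% ± 0.315. Akap1, which tethers PKA to the outer mitochondrial membrane, fell from 783, 840 and 813 CPM to 32.2, 32.5 and 33.0 CPM, a change of -4.64 (0.10, adjusted p = 1.94e-17). All 12 general anchors were called with TMM, 7 higher and 5 lower. Of all genes tested 80.9% were called, 36.7% higher and 44.2% lower.

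Akap13 rose from 61.4, 67.4 and 76.3 CPM to 291, 292 and 308 CPM, a log2 change of 2.12 (standard error 0.10, adjusted p = 7.76e-13). Akap17b, on the X chromosome like Akap4 and Akap14, rose from 15.4, 19.3 and 23.0 CPM to 82.1, 79.2 and 77.2 CPM, a change of 2.04. Akap5, the synaptic membrane anchor, rose from 1.51, 1.39 and 1.64 CPM to 4.97, 4.20 and 3.57 CPM, a change of 1.48. Akap6, known from the nuclear envelope of muscle cells, fell by 1.80 and Akap10 by 1.61. Smaller changes were called for Akap7 (0.60), Akap9 of the centrosome and Golgi (0.48), Akap11 (0.37), Akap8 of the nuclear matrix (0.31) and its relative Akap8l (-0.58). With median-of-ratios Akap11 and Akap8 were at 0.15 and 0.09 and no longer called, Akap8 was also not called without deletion replicate 1 (0.19) or 2 (0.22), and with no factor Akap8l was at 0.01, so the calls of these 3 depended on the scaling.

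The scaling decided the sign of nearly all gains and of few losses. The TMM factor was between 0.806 and 0.828 for WT libraries and between 1.21 and 1.23 for deletion libraries. Over TMM, median-of-ratios, upper-quartile and no factor, 19 members were called higher in all 4 fits and 12 had a call or sign that varied. Of these 12, Adcy2 and Pde6c were called in none of the 4 and varied in sign only. Pde4c and Pde9a were also called in none and kept their sign. At factors that hold the level of 17 Sertoli markers equal in all libraries, of these 19 only Adcy4 and Adcy9 were still called higher. Adcy9 was at 0.33, while Adcy4 had 0 counts in WT, so that its fitted value is no bound and no measure of a gain. Akap13, Prkacb, Prkar2b and Pde8b were at -0.09, -0.09, 0.06 and 0.28 and were not called. Akap7, Akap9, Pde12, Pde3a and Pde4b were called lower there, at -1.61, -1.73, -1.01, -0.92 and -1.05. At an equal level of 11 Leydig markers no member was called higher, and Adcy9, Pde5a and Pde8b were at -0.68, -0.60 and -0.72. A set of 20 members was called lower in all 6 scalings: Adcy1, Adcy10, Akap1, Akap3, Akap4, Akap6, Akap10, Akap12, Akap14, Pde1a, Pde1c, Pde3b, Pde4a, Pde4dip, Pde6d, Pde6h, Pde7a, Pde8a, Prkar1b and Prkar2a. The median change of all genes was -0.13, -0.35, 0.33, 0.46, -2.33 and -3.33 in TMM, median-of-ratios, upper-quartile, no factor, Sertoli level and Leydig level. All genes split into 7036 higher and 8454 lower with TMM and into 8959 and 7052 with no factor. With TMM, 17 of 17 Sertoli markers and 11 of 11 Leydig markers rose, with summed levels of 1090 to 1243 and 806 to 918 CPM in WT and 5193 to 5493 and 7525 to 8371 CPM in the deletion. Endothelial and macrophage marker sums rose from 39.1 to 49.3 and 90.3 to 106 CPM in WT to 116 to 126 and 463 to 511 CPM in the deletion. Other lists were mixed: of 10 spermatogonia markers 6 rose and 2 fell (sums of 478.5 to 566.4 CPM in WT and 435.1 to 496.4 CPM in the deletion), and of 7 myoid markers 5 rose and 1 fell, Actg2 at a log2 change of -5.43 (sums of 606.6 to 646.6 and 688.9 to 730.0 CPM). The part of each cell type in the members' gains was not tested.

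**Figure D5:**
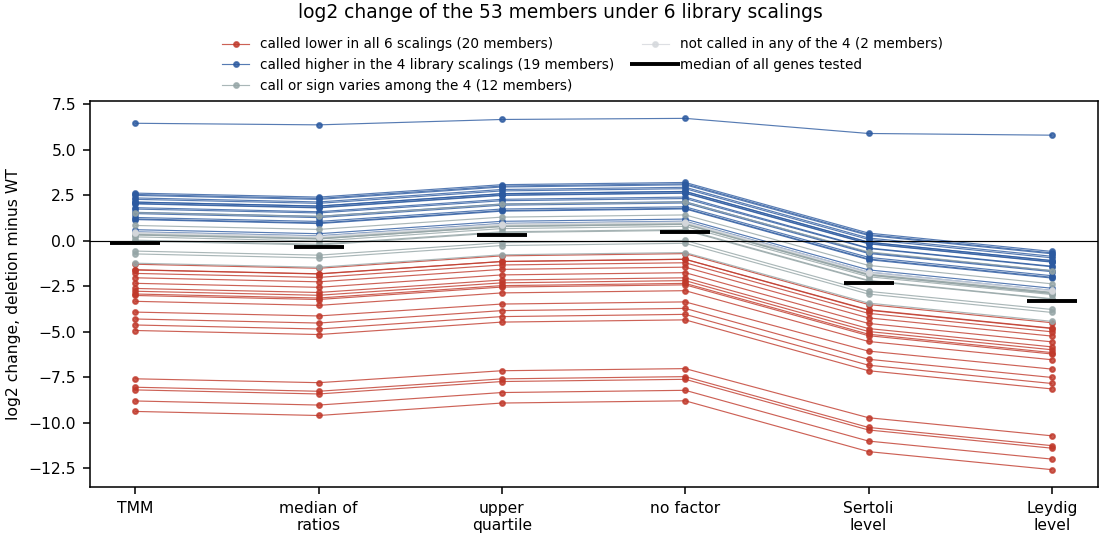
log2 change of each of the 53 tested members under 6 scalings, with lines joining the values of 1 gene and black bars for the median of all genes tested. The 20 red members stay below 0 in every scaling, and the 19 blue ones lie above 0 in the first 4 and around or below it at Sertoli and Leydig level, apart from Adcy4. Adcy4 had 0 counts in WT, so its fitted value is no bound.

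The partners of these enzymes were counted from a list of 63 pathway genes outside the set, of which 54 were tested with 23 higher, 24 lower and a median log2 change of 0.07. Of all genes 36.7% were higher and 44.2% lower, against which these counts and those of the subgroups are to be read. Of 12 receptors and G proteins 7 were higher and 2 lower: Gnas, the stimulatory G protein that switches cyclases on, rose by 2.25 and the inhibitory Gnai2 by 1.70, whereas Gnao1 and Gnal, G proteins best known from neurons, fell by 2.47 and 1.99. Of 10 other receivers of cyclic AMP 4 were higher and 4 lower. Rapgef3 and Rapgef4, the exchange factors known as Epac, rose by 1.62 and 1.64. Slc9c1, the sperm sodium-proton exchanger with a cyclic nucleotide-binding domain, had 5188 counts in WT and 3 in the deletion, a ratio of 2442 (95% exact interval 835 to 11850, counting error only), and the channel gene Cnga4 121 and 1, a ratio of 171 (30.1 to 6804). All deletion counts of both genes were in deletion replicate 1, and without it the fitted log2 changes went from -11.06 to -14.01 for Slc9c1 and from -6.90 to -8.59 for Cnga4, values that depend on the prior count. Of 4 PKA inhibitors and kinase relatives, Pkia and Prkx rose by 2.81 and 1.64 and Pkib and Pkig fell by 6.29 and 2.32.

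All 4 sperm proteins with an RII-like docking domain fell, such as Spa17 by 7.20 and Ropn1l by 7.48. Of 10 transcription factors and coactivators downstream 6 were higher, among them the coactivators Crebbp and Ep300 at 0.64 and 0.58, and 4 lower, among them Creb3l4 at -7.73 (-8.40 without deletion replicate 1) and Crem, the cyclic AMP-responsive factor of spermatids, at -5.44. Of 14 anchors with other names 4 were higher, such as Ezr and Wasf1 at 2.20 and 0.83, and 8 lower. Among those 8, Fsip1, Sphkap and Map2 had the largest falls, at -7.25, -4.21 and -3.38. The most abundant of the 8, Acbd3 at -0.59 and Pcnt at -0.27, had the smallest falls, with Pcnt at 0.32 and Acbd3 at -0.01 when no factor was used. At Sertoli level Gnas, Pkia and Ezr were at 0.04, 0.62 and -0.004, none of them called higher. Rapgef3, Rapgef4, Crebbp, Ep300, Wasf1, Prkx and Gnai2 were called lower there, at -0.58, -0.55, -1.57, -1.63, -1.37, -0.57 and -0.51.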

How the data were processed

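Raw counts per Ensembl gene were deposited for 6 libraries of a stranded SMART-Seq kit, made by the authors with Trim Galore, HISAT2 and featureCounts on GRCm38, per the submitters' processing notes. Their versions, the annotation and the strand option remain not given in the sources used here. Overlapping and antisense genes therefore may share reads. Members, lists and tests were chosen with earlier results of these data known.

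Genes with at least 30 counts over the 6 libraries (19146 of 54100) were fitted in R 4.3.3 with edgeR 4.0.16 (TMM, quasi-likelihood test, Benjamini-Hochberg adjustment over all genes, false discovery rate 0.05). CPM values are TMM-scaled and 1 count was worth 0.0904 to 0.151 CPM. Positions, exon lengths and shared 50-mers came from GENCODE M21, which holds all 54100 genes, and promoters from RefSeq GRCm38.p6 for 47 of 57 members. Named genes were all PKA subunits and sperm forms and, by family, the most abundant called and the most changed members, and up to 2 called pathway genes per subgroup and direction. Titles carry an animal-like number but no statement of litter or culture, and p-values refer to the spread among these libraries only. No 2 libraries agreed within sampling noise (chi-square per degree of freedom 4.58 to 7.06 within groups). The steps were tested on simulated counts. Alternatives were other scalings, filters and thresholds, DESeq2 1.42.0, a test against a 1.5-fold change and each library left out.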

Additional observations from a re-analysis of the deposited data

How the results depend on the processing

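The sign of gains depended on the scaling, and the 4 sperm forms were called lower in all 16 alternative fits. At Sertoli level, 747 genes were called higher and 14208 lower, 2 and 38 of the members, and 2 and 34 of the general forms, whose median was -1.86. At Leydig level these were 70 and 16838, 0 and 50, and 0 and 46, with a median of -2.86. log2 changes that turned negative at Sertoli level were Adcy3 -0.66, Adcy5 -0.41, Adcy6 -1.89, Akap11 -1.84, Akap13 -0.087, Akap17b -0.16, Akap5 -0.71, Akap7 -1.61, Akap8 -1.90, Akap9 -1.73, Pde11a -0.62, Pde12 -1.01, Pde3a -0.92, Pde4b -1.05, Pde4c -1.79, Pde4d -0.18, Pde6a -1.36, Pde6c -1.99, Pde7b -0.43, Pde9a -1.72, Prkaca -1.86, Prkacb -0.093, Prkar1a -2.19, Rapgef4 -0.55, Rapgef3 -0.58, Crebbp -1.57, Ep300 -1.63, Ezr -0.0042, Wasf1 -1.37, Prkx -0.57, Gnai2 -0.51. At Leydig level they were Adcy3 -1.66, Adcy5 -1.41, Adcy6 -2.91, Adcy7 -0.86, Adcy9 -0.68, Akap11 -2.84, Akap13 -1.09, Akap17b -1.16, Akap5 -1.71, Akap7 -2.62, Akap8 -2.90, Akap9 -2.74, Pde11a -1.65, Pde12 -2.01, Pde3a -1.93, Pde4b -2.06, Pde4c -2.78, Pde4d -1.19, Pde5a -0.60, Pde6a -2.38, Pde6c -2.96, Pde7b -1.44, Pde8b -0.72, Pde9a -2.74, Prkaca -2.86, Prkacb -1.10, Prkar1a -3.19, Prkar2b -0.95, Rapgef4 -1.56, Rapgef3 -1.59, Crebbp -2.58, Ep300 -2.63, Ezr -1.01, Wasf1 -2.38, Prkx -1.57, Pkia -0.39, Gnai2 -1.52, Gnas -0.96. With upper-quartile scaling the median of all genes (0.33), Adcy2 (0.44) and Pcnt (0.19) changed sign, and with no factor that median (0.46), Adcy2 (0.56), Akap8l (0.0081) and Pcnt (0.32). Prkar1a was at -0.20 with median-of-ratios and with DESeq2, -0.033 with filterByExpr, which dropped 2 members, and -0.015 with no filter. Pde6c was at -0.024 with median-of-ratios and -0.042 with DESeq2. Leaving out 1 library at a time changed the sign only among 5 uncalled members, with ranges of -0.066 to 0.10 for Prkar1a, -0.36 to 0.14 for Adcy2, -0.46 to 1.13 for Pde6c, -0.073 to 0.76 for Pde4c and -0.031 to 1.01 for Pde9a, and ended the calls of Pde11a, Pde7b and Akap8 in some fits, and the cause was not tested. Against a 1.5-fold change 17 members were higher and 21 lower, and DESeq2 called 18 and 24. Without division by exon length the differences in share, deletion minus WT in percentage points, were -24.3 for Prkaca of the catalytic pair, 36.6, -52.0 and 15.7 for Prkar1a, Prkar2a and Prkar2b of the regulatory genes, 20.7 for catalytic of all subunits, -90.0 for Adcy10 and -27.6 for the sperm anchors, all in the same direction as with it. Of the shares picked later, those of Akap12 among general anchors and Pde1c among Pde1 genes went from -19.6 to -33.0 and from -29.0 to -49.3 points. No paired analysis was possible because the groups share no replicate numbers in the labels: the number in each title occurs once, and though some are adjacent between groups, no source used here says that this marks a litter or a day. Members under about 1 CPM rest on few counts, and 3 libraries per group limit exact tests to p = 0.1.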

Other observations

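Per kb of exon, the order of the anchors changed below Akap12. In WT the ranks after it were Akap4, Akap3 and Akap1, and in the deletion Akap8l, Akap9 and Akap8, with Akap4 and Akap3 at ranks 11 and 12 of 15. Among the Pde genes Pde8a ranked first in both groups, at 38.6% ± 0.67 and 24.0% ± 1.84 of the family's counts per kb (n = 3, SD), followed by Pde1a in WT and by Pde4b in the deletion. Pde1c went from rank 4 to rank 23 of 26. The 57 genes together took 1.41% to 1.43% of all counts in the WT libraries and 0.428% to 0.436% in the deletion libraries. This sum is weighted to Akap12, Akap4 and Akap3, with 196906, 51339 and 38302 counts over the WT libraries. By gene, 23 of the 53 tested rose and 23 fell with TMM, with a median log2 change of 0.31.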
